A study of Mus musculus with 32 samples.

Results

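The Hippo pathway is a kinase cascade that controls organ size and responds to cell contact, cell shape and mechanical tension. Its kinases Lats1 and Lats2 phosphorylate the coactivators YAP (Yap1) and TAZ (Wwtr1) and keep them out of the nucleus. When the kinases are quiet, YAP and TAZ bind TEAD proteins on DNA and switch on genes such as Cyr61 and Ctgf, and the pathway also holds back its own output, because YAP induces Lats2 and Amotl2. In presomitic mesoderm (PSM), the tissue that buds off the somites, YAP activity is known to set how readily cells enter segmentation clock oscillations.

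The transcripts of 10 genes of this pathway were followed in mouse PSM cells made in culture. The 10 were taken by symbol from a table of 21886 genes, and all 10 were found. They are the targets Cyr61 and Ctgf (Ccn1 and Ccn2 in newer naming), the regulators Amotl1, Amotl2, Ajuba and Lats2, the coactivators Yap1 and Wwtr1, and the DNA-binding factors Tead1 and Tead2.

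The cells came from mouse epiblast stem cells of the line AES0204 that carry a luciferase reporter of the clock gene Hes7. Ex5 and Ex4 are independent time courses of 16 libraries each, sampled at labelled times of 165 to 425 min in Ex5 and 155 to 405 min in Ex4. Each library is 1 dish of cells frozen whole, so every time has 1 library per course and the spread was taken from deviations around fitted curves. All dishes of both courses had first been treated for 30 h with the GSK3 inhibitor CHIR99021 at 10 µM, then with 1 µM, both with SB431542 (10 µM), LDN193189 (250 nM) and bFGF (20 ng/ml). Before that, they had been seeded overnight on fibronectin with Y27632, an inhibitor of the ROCK kinases that act on the actin cytoskeleton. There was no untreated course, no change of the YAP pathway itself, and no protein measurement. Depth was 16.1 to 28.6 M counts per library in Ex5 (median 22.2 M) and 19.3 to 29.5 M in Ex4 (median 24.1 M).

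The labelled cell type was checked against marker genes. All 8 PSM markers were detected, T and Tbx6 among them, and their summed level was 3030 to 3717 CPM (counts scaled to a common library size) in Ex5 and 2394 to 3108 CPM in Ex4. Summed neural markers were lower in every Ex5 library (27.6 to 35.2 CPM) than in any Ex4 library (44.6 to 56.0 CPM). Somite, endoderm and vascular or lateral mesoderm markers each summed to at most 10.3 CPM in Ex5 and 8.17 CPM in Ex4, while pluripotency markers summed to 22.1 to 57.7 CPM in Ex5 and 32.3 to 87.3 CPM in Ex4, mostly Pou5f1, and fibroblast markers to 41.3 to 72.1 CPM in Ex5 and 39.6 to 62.4 CPM in Ex4. No marker had 0 counts over all libraries. Because whole dishes were lysed, fewer cells of a type and less RNA per cell cannot be told apart in any value below.

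The clock reference was Hes7, whose fitted period was 135 min (95% interval 129 to 141 min), with peaks at 237 and 372 min in Ex5 and at 212 and 347 min in Ex4. Its peak-to-trough difference was 1.07 log2 in Ex5 and 0.95 log2 in Ex4. Ex5 spans 1.93 and Ex4 1.85 of these cycles. Rhythm, change over time and the difference between courses were tested with edgeR's quasi-likelihood test over 11772 genes, those that reached 1 CPM in 16 or more libraries, with Benjamini-Hochberg adjustment and a threshold of 0.05. Of the 10 genes, 9 were tested and Ctgf lay under this limit.

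TEAD proteins bind DNA at the letters GGAATG, which read CATTCC on the other strand. The 250 bases before the RefSeq start were searched on both strands for the 8 genes with such a window, all but Ctgf and Tead1, and 5 of them held the letters: Cyr61, Amotl2, Ajuba, Yap1 and Wwtr1. Among all 32851 mouse windows of this length, 12.6% held them. That share is per window, whereas the 8 genes have 10 windows and a gene was counted if any of its windows held the letters. Cyr61 had the largest level difference of the pathway genes tested, Ajuba passed the rhythm test, and Amotl2 came next by p without passing. A link of the letters with level or rhythm was not tested. For these 3 genes the windows are shown, with the TEAD letters in capitals. They come from RefSeq (GRCm38.p6), read in the direction of the gene, at chr3:145649986-145650235 (minus strand), chr9:102717554-102717803 (plus strand) and chr14:54577662-54577911 (minus strand).
Cyr61: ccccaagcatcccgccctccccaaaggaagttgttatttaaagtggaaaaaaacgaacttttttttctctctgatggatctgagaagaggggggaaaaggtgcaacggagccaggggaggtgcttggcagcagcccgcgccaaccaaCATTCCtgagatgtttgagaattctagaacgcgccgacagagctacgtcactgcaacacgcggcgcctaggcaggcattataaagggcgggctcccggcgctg
Amotl2: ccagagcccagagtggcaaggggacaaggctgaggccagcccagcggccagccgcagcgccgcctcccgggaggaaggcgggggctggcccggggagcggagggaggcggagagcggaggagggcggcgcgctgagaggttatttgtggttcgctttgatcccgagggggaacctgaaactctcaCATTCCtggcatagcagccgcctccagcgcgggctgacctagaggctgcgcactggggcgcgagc
Ajuba: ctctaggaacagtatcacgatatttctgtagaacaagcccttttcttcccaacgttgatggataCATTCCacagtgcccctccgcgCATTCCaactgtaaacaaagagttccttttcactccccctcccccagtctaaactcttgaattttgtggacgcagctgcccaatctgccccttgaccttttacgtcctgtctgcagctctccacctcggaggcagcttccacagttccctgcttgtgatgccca
In Cyr61 the match began at position -103 from the start, in Amotl2 at -65, and Ajuba had 2 matches, at -186 and -164. The windows of Tead2, Amotl1 and Lats2 held none. Neither the AP-1 letters TGANTCA (6.75% of all windows) nor the CArG box bound by serum response factor (1.47% of all windows) was in any window of these genes. A match of letters describes this window only and is not a binding site.

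Per length, the DNA-binding factor Tead2 stood far above the other 9 genes and the matricellular target Ctgf far below them. Tead2 averaged 135 ± 11 CPM per kb of exon in Ex5 and 132 ± 7.0 in Ex4 (SD, n = 16 libraries each). Its relative Tead1 averaged 8.20 ± 0.68 in Ex5 and 8.13 ± 0.74 in Ex4, and the ratio of Tead2 to Tead1 per length was 16.5 ± 1.7 in Ex5 and 16.4 ± 1.4 in Ex4. The other family members were lower still, with Tead3 at 2.21 ± 0.24 CPM per kb in Ex5 and 2.05 ± 0.19 in Ex4, and Tead4 at 1.34 ± 0.23 in Ex5 and 1.08 ± 0.13 in Ex4. Tead2 thus made up most TEAD transcript in every library, with the lowest ratio to Tead1 at 13.0 in Ex5 and 12.4 in Ex4. Tead2 overlaps the gene Cd37 on the opposite strand, and whether counting used the strand is not given in the sources used here.

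Between the coactivators, Yap1 was the more abundant, at 27.1 ± 0.97 CPM per kb in Ex5 and 26.5 ± 0.57 in Ex4, against Wwtr1 at 6.20 ± 0.34 in Ex5 and 6.80 ± 0.33 in Ex4. The ratio was 4.40 ± 0.35 in Ex5 and 3.91 ± 0.18 in Ex4, and 7.57 in Ex5 and 6.73 in Ex4 with the longest transcript as length. The angiomotins, scaffolds that tether YAP at junctions and on actin, and the LIM protein Ajuba, which holds back the Lats kinases, lay between these. Ajuba had 16.9 ± 1.2 CPM per kb in Ex5 and 17.3 ± 1.2 in Ex4, Amotl1 14.9 ± 1.1 in Ex5 and 13.9 ± 0.53 in Ex4, and Amotl2 11.2 ± 0.57 in Ex5 and 12.0 ± 0.63 in Ex4. Amotl1 lay above Amotl2 per length by a ratio of 1.33 ± 0.11 in Ex5 and 1.16 ± 0.086 in Ex4, but with the longest transcript the order turned in Ex4 (0.920).

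The kinase Lats2 and the target Cyr61 were both low. Lats2 had 1.27 ± 0.18 CPM per kb in Ex5 and 1.45 ± 0.10 in Ex4, and Cyr61 had 1.05 ± 0.27 in Ex5 and 1.71 ± 0.34 in Ex4, so their order differed between the courses by no more than their spread. With the longest transcript as length, Lats2 lay above Cyr61 in both courses (1.70 against 1.05 in Ex5, 1.95 against 1.71 in Ex4). The other kinase of the pair, Lats1, had 8.33 ± 0.68 CPM per kb in Ex5 and 7.81 ± 0.46 in Ex4.

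**Figure D1:**
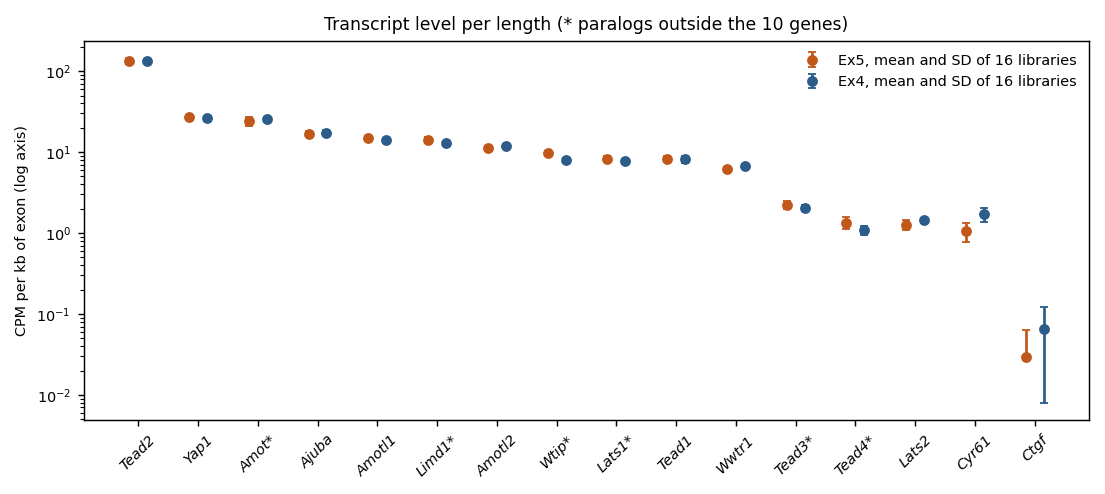
Mean level of the 10 genes and 6 paralogs (asterisks) in CPM per kb of exon, on a log axis, in Ex5 (orange, left of each pair) and Ex4 (blue), with the SD over 16 libraries. Tead2 is highest at 135 CPM per kb in Ex5 and 132 in Ex4, and Ctgf lowest; the lower bar of Ctgf in Ex5, which would reach below 0, is left out.

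Cyr61, a secreted matricellular protein and the classic readout of YAP, was lower in Ex5 than in Ex4. It had 1.31 CPM in the lowest, 2.06 in the median and 3.60 in the highest Ex5 library, against 2.44, 3.29 and 4.94 CPM in Ex4. The courses overlapped, but 13 of 16 Ex5 libraries lay below the lowest Ex4 library and no Ex5 library lay above the highest. The fitted difference at 285 min, Ex5 minus Ex4, was -0.73 ± 0.09 on the log2 scale, a ratio of 0.604 (SE, edgeR's quasi-likelihood test, adjusted p = 2.05e-08), and ranged from -0.79 to -0.69 when each library was left out in turn. Each side is a single course. This p, like others between courses below, measures the scatter of libraries around fitted curves and not variation between repeated courses. Counts behind these values were 26 to 88 per library in Ex5 and 60 to 107 in Ex4.

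Cyr61 also rose over the sampled hours, by a mean slope of 0.20 ± 0.06 log2 per 100 min (adjusted p = 0.00866). The slope was 0.14 ± 0.10 in Ex5 (adjusted p = 0.203) and 0.26 ± 0.08 in Ex4 (adjusted p = 0.0131), and the slopes were not shown to differ (adjusted p = 0.560). The highest Ex5 value fell at 325 min and was 0.62 log2 above the fitted curve, the largest deviation of Cyr61 in any library. Ctgf was also at its Ex5 highest in that library, and Amotl2 at its Ex5 lowest.

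Ctgf, the target most often read beside Cyr61, was barely detected. It had 30 counts over all 16 Ex5 libraries, with 0 to 10 per library and 3 libraries at 0, and 68 counts over the 16 Ex4 libraries, with 1 to 13 per library. A count of 3, the limit that a count of 0 allows for counting error alone, is 0.137 CPM in an Ex5 library of median depth and 0.123 CPM in Ex4, and the Ctgf means were 0.0851 CPM in Ex5 and 0.185 CPM in Ex4. With no filter on low counts (18180 genes tested) its level was lower in Ex5 by log2 -1.02 (edgeR, adjusted p = 0.0440). That call was kept in 14 of 32 fits that each left out 1 library, with the difference between -1.47 and -0.66. Without the Ex4 library at 385 min, which held 13 of the 68 counts, it was -0.66 (adjusted p = 0.217). The other CCN genes Nov, Wisp1, Wisp2 and Wisp3 were under the limit for testing as well, at mean levels of at most 0.204 CPM in either course.

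**Figure D2:**
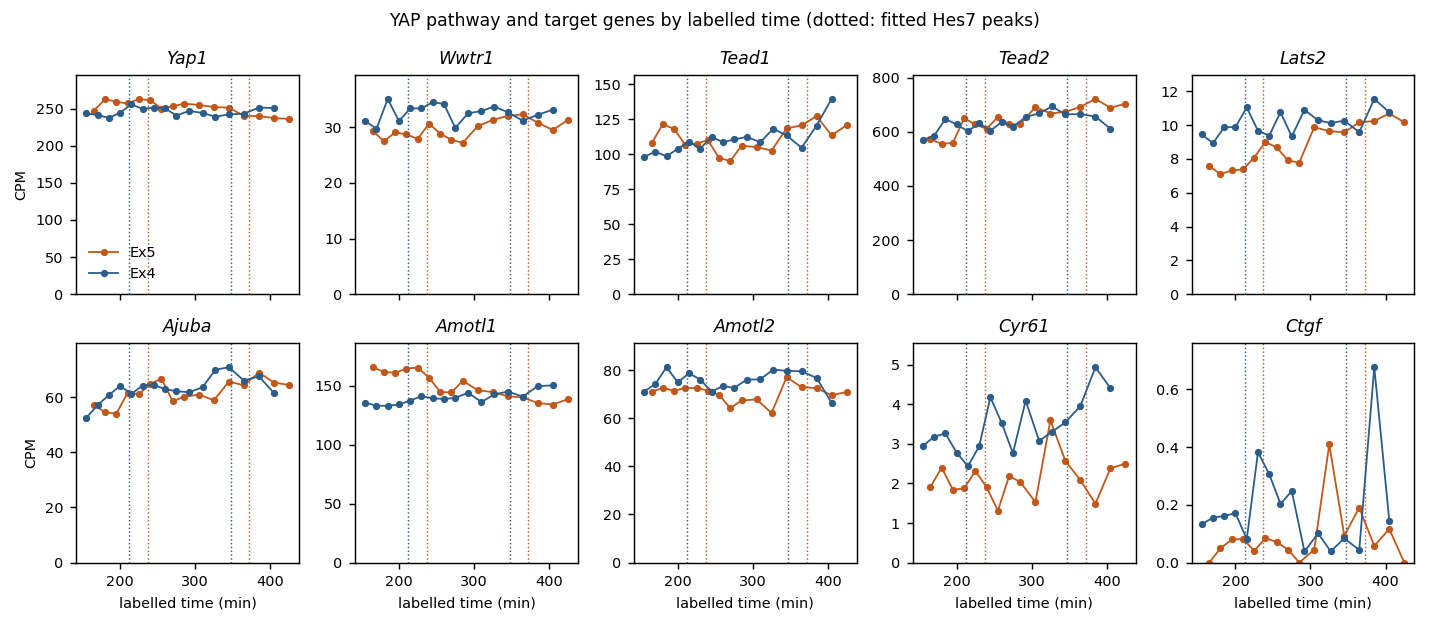
CPM of each gene against labelled time in min, in Ex5 (orange) and Ex4 (blue), 1 library per point, with fitted Hes7 peaks as dotted lines; each panel starts at 0 and has its own scale. Cyr61 lies lower in Ex5 than in Ex4 in most libraries, Amotl1 falls in Ex5 and rises in Ex4, and Ctgf stays under 0.7 CPM throughout.

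Compared across courses, 5 of the 9 tested genes differed in level, 1 higher and 4 lower in Ex5. Of all tested genes 55.1% differed, with 27.4% higher and 27.7% lower in Ex5, so the share among the pathway genes (5 of 9) was near that of the background. At 285 min, where the fitted levels were compared, and beside Cyr61, Lats2 was lower in Ex5 by log2 -0.22 ± 0.04, Wwtr1 by -0.14 ± 0.03 and Amotl2 by -0.10 ± 0.02, and Amotl1 was higher by 0.09 ± 0.02 (adjusted p between 7.11e-06 and 0.000327, edgeR). Over the last 4 libraries of each course Amotl1 was lower in Ex5, at 137 CPM against 147 CPM in Ex4. The ranges of Ex5 and Ex4 overlapped for each of the 10 genes, whereas they did not for 3.53% of all tested genes. Ajuba (-0.044 ± 0.021, adjusted p = 0.0770), Yap1 (0.032 ± 0.015, adjusted p = 0.0701), Tead1 (-0.0046 ± 0.032) and Tead2 (0.016 ± 0.020) did not pass. Both Ajuba and Yap1 passed with quadratic time (adjusted p = 0.0212 and 0.0349) and with the library GC score as a covariate, described with the rhythms (adjusted p = 0.00436 and 0.0154), and Yap1 passed with DESeq2 (adjusted p = 0.0328). The neural markers Sox2 and Sox3 were lower in Ex5 too, by log2 -1.16 and -0.70 (3 of the 4 tested neural markers were lower and 0 higher). Of the 8 PSM markers, 7 were higher and 1 lower in Ex5, and of the 4 tested fibroblast markers 3 were higher and 1 lower, with Col1a1 higher by 1.27 and Col3a1 lower by log2 -0.62. These markers were named after their values were seen. Whether the makeup of the dishes has a part in the level differences was not tested.

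Amotl1, which lay above Amotl2 per exon length, moved in opposite directions in the courses. In Ex5 it had 134 CPM in the lowest, 146 in the median and 166 in the highest library, and in Ex4 133, 140 and 150 CPM. The highest Ex5 values were the early ones, with a mean of 163 CPM over the first 4 libraries and 137 CPM over the last 4, while in Ex4 the last 4 were high (147 CPM) and the first 4 low (134 CPM). The slope was -0.12 ± 0.02 log2 per 100 min in Ex5 (adjusted p = 3.89e-08) and 0.061 ± 0.016 in Ex4 (adjusted p = 0.00325), and the slopes differed by -0.18 ± 0.02 (adjusted p = 3.04e-07, edgeR). Slopes that were each past the threshold with opposite signs were found in 0.815% of all tested genes, and Amotl1 was the only one of the 9 with such slopes. The difference lay between -0.19 and -0.17 without any single library. The mean of the slopes was -0.030 ± 0.011 (adjusted p = 0.0282) and lies between the opposite slopes of the courses; it missed the threshold without the Ex4 library at 230 min or at 310 min (adjusted p up to 0.0578).

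**Figure D3:**
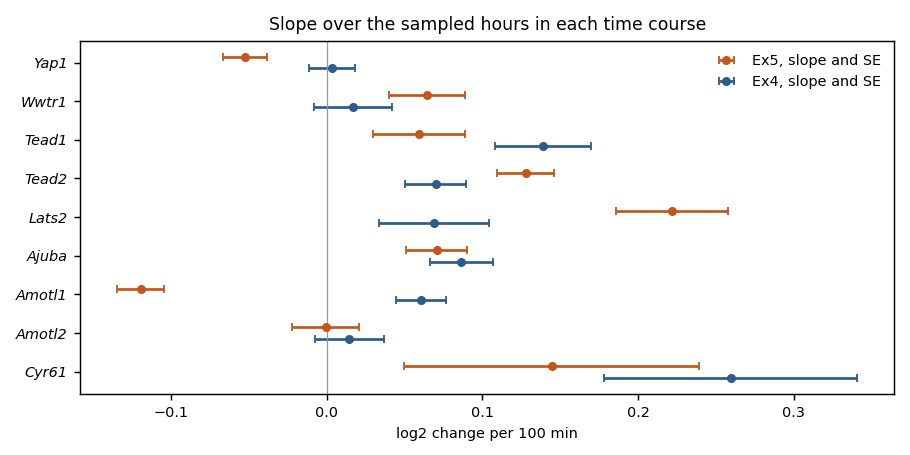
Slope in log2 change per 100 min for the 9 tested genes in Ex5 (orange, above) and Ex4 (blue), with standard errors. Amotl1 has slopes on either side of 0 (-0.12 in Ex5 and 0.061 in Ex4), and Lats2 has the steeper rise in Ex5 (0.22, against 0.069 in Ex4).

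In all, 3 of the 9 genes had slopes that differed between courses, 1 above and 2 below 0, against 16.1% of all tested genes (7.03% above and 9.06% below 0). Lats2, which phosphorylates YAP, was the second. It had 7.11 CPM in the lowest, 8.84 in the median and 10.7 in the highest Ex5 library, and 8.93, 10.0 and 11.5 CPM in Ex4. The lowest values were early in Ex5, and 8 of 16 Ex5 libraries lay below the Ex4 range, but the late Ex5 libraries (mean of the last 4, 10.3 CPM) reached the Ex4 ones (10.5 CPM). Its slope was 0.22 ± 0.04 in Ex5 and 0.069 ± 0.035 in Ex4, with a difference of 0.15 ± 0.05 (adjusted p = 0.0281). Yap1 was the third, with -0.052 ± 0.014 in Ex5 and 0.0035 ± 0.015 in Ex4 and a difference of -0.056 ± 0.020 (adjusted p = 0.0466). That of Lats2 was lost without the Ex4 library at 365 min or the Ex5 library at 195 min (adjusted p up to 0.0563), and that of Yap1 in 17 of 32 fits without 1 library (adjusted p up to 0.0944). Tead2 did not pass (0.058 ± 0.026, adjusted p = 0.119), but did with the library GC score as a covariate (0.068, adjusted p = 0.00967).

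By the mean of the slopes of both courses, 7 of the 9 genes changed with time, 5 up and 2 down. Of all tested genes 53.3% changed, 26.8% up and 26.6% down. Beside Cyr61, the rising genes were Lats2 (mean slope 0.15 ± 0.03 log2 per 100 min), Tead1 (0.10 ± 0.02), Tead2 (0.10 ± 0.01) and Ajuba (0.08 ± 0.01), with adjusted p between 1.82e-07 and 0.000280 in edgeR's quasi-likelihood test. Within single courses, the slope of Tead1 did not pass in Ex5 (0.059 ± 0.030, adjusted p = 0.0902) and that of Lats2 did not pass in Ex4 (0.069 ± 0.035, adjusted p = 0.133). Those with a falling mean slope were Amotl1 and Yap1 (-0.024 ± 0.011, adjusted p = 0.0490), and the call of Yap1 was lost in 22 of 32 fits that left out 1 library. Neither fell within Ex4, where Amotl1 rose (0.061 ± 0.016, adjusted p = 0.00325) and Yap1 had a slope near 0 (0.0035 ± 0.015, adjusted p = 0.880). Wwtr1 (0.040 ± 0.018, adjusted p = 0.0575) and Amotl2 (0.0069 ± 0.016) did not pass. The slope of Wwtr1 passed within Ex5 (0.064 ± 0.025, adjusted p = 0.0278) but not within Ex4 (0.017 ± 0.025, adjusted p = 0.646). Its mean slope passed in 7 of the 32 fits that left out 1 library. The median slope was 0.079 over the 9 genes and -0.0016 over all tested genes.

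Tead2 had 555 CPM in the lowest, 652 in the median and 721 in the highest Ex5 library, and 569, 633 and 693 CPM in Ex4. The low libraries were the early ones in both courses, which overlapped over most of their range. Tead1 had 95.3, 109 and 127 CPM in Ex5 and 98.1, 109 and 140 CPM in Ex4. Its highest value was the Ex4 library at 405 min, which deviated most from the fitted curves over all genes (median absolute deviation 0.0902 log2); the lowest slope of Tead1 in any fit without 1 library was 0.08 (adjusted p up to 0.00231). Yap1 was the steadiest of the 10, with 236, 253 and 263 CPM in Ex5 and 237, 244 and 256 CPM in Ex4, and a residual SD of 0.033 log2. Wwtr1 had 27.2, 29.4 and 32.3 CPM in Ex5 and 29.7, 32.8 and 35.0 CPM in Ex4, with 9 of 16 Ex5 libraries below the Ex4 range.

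No gene of the 9 was shown to depart from a straight line over time (curvature, 0 calls in edgeR and 0 in DESeq2), where 18.5% of all tested genes were. The test took the mean of the quadratic time terms of the courses, so opposite bends would cancel. A bend in a single course was not tested. Unadjusted, 2 of the 9 had a p under 0.05, Tead1 (adjusted p = 0.0565) and Tead2 (adjusted p = 0.0705). Tead1 passed in 7 and Tead2 in 3 of the 32 fits without 1 library.

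Of the 9 genes, Ajuba followed the Hes7 cycle. It was the 1 gene past the rhythm test, where 1.32% of all 11772 tested genes passed. Ajuba had 54.0 CPM in the lowest, 61.4 in the median and 68.9 in the highest Ex5 library, and 52.6, 63.3 and 70.9 CPM in Ex4. The courses overlapped almost fully, and the lowest value of each lay among its first 3 libraries. With level and slope removed, the 9 Ex5 libraries within 33.75 min of a Hes7 peak averaged 0.05 ± 0.06 log2 (SD) and the other 7 -0.06 ± 0.04, and in Ex4 the 8 libraries near a peak averaged 0.05 ± 0.04 and the other 8 -0.05 ± 0.06. All 7 Ex5 libraries far from a peak were below their fitted line, as were 6 of 8 in Ex4.

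The fitted rhythm of Ajuba was 1.12-fold from trough to peak (log2 0.16 ± 0.03, adjusted p = 0.00305, edgeR), with its peak 3.45 ± 3.97 min after that of Hes7. In Ex5 alone it was 1.12-fold with the peak 6.35 ± 6.00 min after Hes7, and in Ex4 alone 1.12-fold with the peak 0.55 ± 5.79 min after it. Neither passed alone (adjusted p = 0.380 in Ex5 and 0.242 in Ex4), where 0.408% of genes passed in Ex5 and 0.331% in Ex4. The call was kept in all 32 fits without 1 library (adjusted p up to 0.0122) and lost with an imposed period of 150 min (adjusted p = 0.0798) or 180 min (adjusted p = 0.703).

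Amotl2, a YAP target that in turn restrains YAP, had the next largest rhythm by its p, at 1.10-fold with a peak 12.4 ± 5.4 min before Hes7, and did not pass (adjusted p = 0.0837). It had 62.3, 71.2 and 77.1 CPM in Ex5 and 66.5, 76.1 and 81.3 CPM in Ex4. Its lowest values were at 325 min in Ex5 and at 405 min in Ex4, and the call was gained without the Ex5 library at 325 min or at 425 min (adjusted p down to 0.0269) and with DESeq2 (adjusted p = 0.0313). Tead2 had a fitted rhythm of 1.06-fold (adjusted p = 0.311) and Yap1 of 1.01-fold (adjusted p = 0.938). Cyr61 had the largest fitted ratio, 1.21-fold, with a large error (log2 0.27 ± 0.13, adjusted p = 0.536). Without the Ex5 library at 325 min it was log2 0.16, measured at the peak time fitted with all libraries. In Ex5 alone the fitted peak of Cyr61 lay 46.1 ± 8.0 min before that of Hes7 (log2 0.59), and in Ex4 alone 53.7 ± 12.1 min after it (log2 0.25). No rhythm was shown to differ between the courses in edgeR, with 0 calls among the 9 genes (0 at an unadjusted p under 0.05 and 0 with DESeq2) and 0% of all tested genes.

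Ajuba, Tead2 and Amotl2 are rich in G and C, and their deviations moved with a measure of base composition of the libraries. Their exons have 58.3%, 57.9% and 56.7% GC, against a median of 49.8% over the tested genes. The GC score of a library is a slope on the GC content of genes, in log2 per 10 points of GC. It was fitted to the deviations of the library from each gene's mean over the 32 libraries. The fit ran over the tested genes, those of the pathway among them, so GC-rich genes lean to a positive r by construction. How many other genes of like GC content correlate as much was not tested. For the correlations, level and slope per course were removed from the score as well. Over 32 libraries the deviations of Tead2 correlated with it at r = 0.77 (rho = 0.71, permutation p adjusted over 10 genes = 0.0001 and 0.0002), of Ajuba at r = 0.62 (rho = 0.49, 0.00135 and 0.0244) and of Amotl2 at r = 0.51 (rho = 0.39, 0.0112 and 0.0886). Tead1 (46.5% GC, r = -0.39, rho = -0.36, 0.0609 and 0.0886) and Yap1 (45.2% GC, r = -0.36, rho = -0.37, 0.0959 and 0.0886) leaned the other way and did not pass. The remaining genes lay between r = -0.16 (Ctgf) and 0.09 (Wwtr1). The lowest scores were in Ex4, -0.14 at 155 min and -0.13 at 405 min, and these libraries had the lowest deviations of Ajuba as well. Without the 2 libraries farthest from the median score, r was 0.69 for Tead2, 0.44 for Ajuba and 0.31 for Amotl2. Within Ex5 it was 0.59, 0.65 and 0.17 for these 3 genes, and within Ex4 0.90, 0.61 and 0.77. Hes7 itself had r = 0.46 with the score. With the score as a covariate, chosen after seeing the data, the rhythm of Ajuba was log2 0.13 (adjusted p = 0.0116). This size was measured at the peak time fitted without the score.

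**Figure D4:**
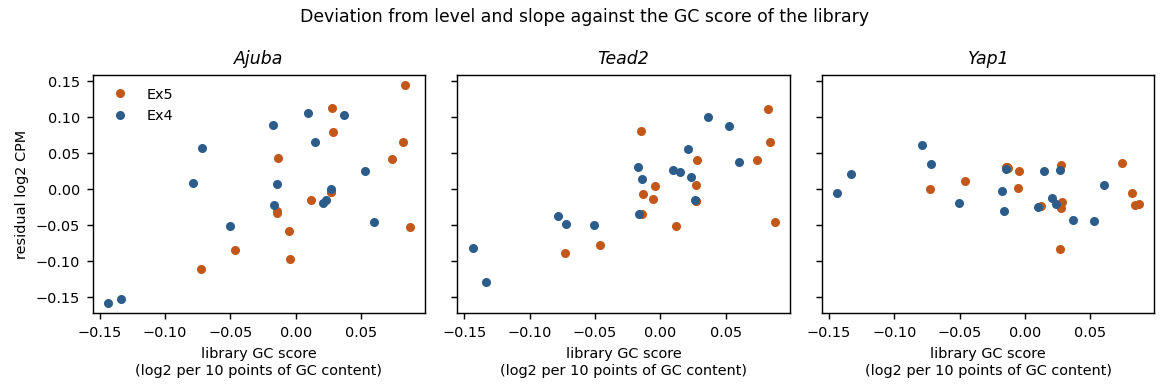
Deviation of log2 CPM from level and slope against the library GC score (log2 per 10 points of GC content) for Ajuba, Tead2 and Yap1, 1 point per library, Ex5 in orange and Ex4 in blue. Tead2 rises along the score (r = 0.77) and Ajuba less tightly (r = 0.62), and Yap1 leans the other way (r = -0.36). The lowest scores belong to Ex4 libraries at 155 and 405 min. The axis shows the score itself, while each r was taken with level and slope per course removed from the score.

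Deviations from library to library were compared for all 45 pairs of the 10 genes, and 3 pairs correlated past the threshold, each positively. The share of such pairs among all tested genes was not taken, so these 3 are not shown to be more than is usual here. Ajuba and Tead2 had r = 0.65 (rho = 0.59, permutation p = 0.000110, adjusted 0.00495), with 0.60 in Ex5 and 0.69 in Ex4, and 0.53 without the 2 libraries farthest from the median of Ajuba. Amotl2 and Ajuba had r = 0.53 (rho = 0.49, permutation p = 0.00183, adjusted 0.0412), with 0.43 in Ex5 and 0.63 in Ex4, and 0.37 without the 2 farthest. With the GC score removed from both genes these r were 0.36 and 0.37. The remaining pair, Lats2 and Wwtr1, had r = 0.52 (rho = 0.46, permutation p = 0.00321, adjusted 0.0481), with 0.62 in Ex5 and 0.43 in Ex4, 0.45 without the 2 farthest, and 0.52 with the score removed. By rank, adjusted permutation p was 0.0229 for Ajuba and Tead2, 0.130 for Amotl2 and Ajuba, and 0.132 for Lats2 and Wwtr1. The targets Cyr61 and Ctgf had r = 0.27 (rho = 0.18, permutation p adjusted = 0.437 and 0.595), with Ctgf near its counting limit. Amotl2 and Tead1 went opposite ways in the courses, with r = 0.73 in Ex5 and -0.63 in Ex4, and a pooled r of 0.17 (rho = 0.21, permutation p adjusted = 0.575 and 0.563). This pair was picked from the 45 by its values, and the difference between courses was not tested. Within Ex4, the library at 405 min had both the lowest deviation of Amotl2 (-0.18) and the highest of Tead1 (0.18). That library deviated most from the fitted curves over all genes.

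Among 9985 tested genes with a mean of at least 5 CPM, those most like Ajuba in their deviations over the 32 libraries were Cxxc5 (r = 0.87), Dab2ip (r = 0.87) and Nckap5l (r = 0.85), with 55.3%, 58.9% and 62.7% GC. Those most like Cyr61 were Gria3 (r = 0.62), Efnb2 (r = 0.62) and Osbp (r = 0.60). For Ctgf they were Ifngr1 (r = 0.64), Golga1 (r = 0.59) and Cyb5d1 (r = 0.56), of which Cyb5d1 had r = 0.74 in Ex5 and 0.22 in Ex4. These are the highest of many values and are given as a description.

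Genes of the wider pathway moved both ways with time. Of 18 core and upstream Hippo genes, all tested, 6 rose and 6 fell, against 26.8% and 26.6% of all tested genes, and none passed the rhythm test in edgeR. Fat4, an atypical cadherin, fell by 0.40 ± 0.06 log2 per 100 min, while its ligand Dchs1 rose by 0.20 ± 0.03. Mob1b, a coactivator of the Lats kinases, fell by 0.39 ± 0.03, and Stk3, which encodes the upstream kinase MST2, rose by 0.10 ± 0.03. Mob1b was also lower in Ex5 (64.1 ± 20.7 CPM, SD) than in Ex4 (93.6 ± 19.3 CPM), by log2 -0.54 (adjusted p = 8.28e-12), and Fat4 was higher (9.80 ± 3.42 CPM in Ex5 and 5.72 ± 1.32 CPM in Ex4, log2 0.77, adjusted p = 2.09e-09).

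Of 9 TEAD, VGLL, angiomotin and LIM family genes, 6 were tested; 0 rose and 3 fell, against 26.8% and 26.6% of all tested genes. Those were Tead4 (-0.11 ± 0.04), Amot (-0.089 ± 0.021) and Limd1 (-0.078 ± 0.013). Amot, the founding angiomotin, had 24.0 ± 3.1 CPM per kb in Ex5 and 25.4 ± 1.8 in Ex4 and lay above Amotl1 and Amotl2. Vgll1, Vgll2 and Vgll3, which compete with YAP for TEAD proteins, were under the limit for testing.

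Other genes often used as YAP targets gave no single direction. Of 20, 15 were tested, 5 rose and 4 fell, against 26.8% and 26.6% of all tested genes, with a median slope of 0.0031. Igfbp3, a binding protein of insulin-like growth factors, fell by 0.54 ± 0.02 log2 per 100 min and Nt5e, the ectoenzyme CD73, by 0.47 ± 0.03. Ccdc80, a matrix protein, rose by 0.45 ± 0.06 and Rbms3, an RNA-binding protein, by 0.38 ± 0.10. Of these 15, 6 were higher and 7 lower in Ex5, against 27.4% and 27.7% of all tested genes. Igfbp3 had 49.1 ± 18.1 CPM in Ex5 and 85.2 ± 19.7 CPM in Ex4 (log2 -0.80, adjusted p = 4.90e-21). Ankrd1, another common readout, was under the limit for testing.

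Genes of the actin cytoskeleton and serum response factor, through which tension also acts on Cyr61 and Ctgf, moved in either direction. Of 13, 11 were tested, 3 rose and 3 fell, shares near those of all tested genes (26.8% and 26.6%). The steepest slopes were Cnn2 by -0.39 ± 0.02, Acta2 by 0.27 ± 0.02, Vcl by -0.14 ± 0.02 and Tpm1 by 0.12 ± 0.02 log2 per 100 min. None of the 11 passed the rhythm test in edgeR. Immediate early genes, which share serum response with Cyr61, were tested for 11 of 15, and 4 of the 11 passed the rhythm test, against 1.32% of all tested genes. These were Junb (1.70-fold, adjusted p = 2.1e-05), Ier2 (1.17-fold, adjusted p = 0.000364), Egr1 (1.47-fold, adjusted p = 0.0212) and Nr4a1 (1.20-fold, adjusted p = 0.0347). Of the 11, 8 were higher and 0 lower in Ex5, against 27.4% and 27.7% of all tested genes. With time, 2 of the 11 rose, Ier3 (0.21 ± 0.09) and Nr4a1 (0.080 ± 0.030), and Fos fell (-0.27 ± 0.08).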

How the data were processed

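Polyadenylated RNA was sequenced in 32 libraries of stranded mRNA made from 200 ng total RNA, per the labels' protocols. The authors deposited raw read counts per gene symbol. Per the submitters' processing notes bcl2fastq 2.17.1.14, cutadapt 1.14, HISAT2 2.1.0, HTSeq 0.6.1 and the genome build mm10 were involved; which annotation was counted, and whether by strand, is not given in the sources used here. The number of unused columns was 0.

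Genes with fewer than 16 libraries at 1 CPM or more were left out, and counts were scaled to CPM by TMM (edgeR 4.0.16, R 4.3.3). The clock phase came from a least-squares fit of Hes7 log2 CPM (prior count 0.5), with 1 period searched between 90 and 240 min. edgeR's quasi-likelihood model had a level and slope per course, with time counted from 285 min, and cosine and sine terms common to both; it was tested on simulated data. Slopes are log2 per 100 min. Standard errors were taken from F statistics and do not include the uncertainty of the Hes7 phase. The fit was unblocked: labelled time point numbers mark an order of sampling. Correlations used 100000 permutations within course. DESeq2 1.42.0 was an alternative. Nothing in the labels says whether dishes of a course came from separate cultures, so p-values measure the spread between these dishes, which may be technical. Exon length and GC content come from GENCODE M21 (GRCm38). Counting limits cover counting error only.

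The genes, lists, tests and the rule for named genes were chosen with earlier results of these data known. Named were all 10 genes, in each list other than the markers the 4 steepest past the trend test and any past the rhythm test, and the 3 genes most alike for Cyr61, Ctgf and Ajuba. Alternatives were other scaling, filters, periods and time terms, each course alone, a replicate block, DESeq2, leaving out each library and, added after seeing the data, a GC covariate.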

Additional observations from a re-analysis of the deposited data

Results flagged for a closer look

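The slopes of 3 genes differed between the time courses by the test of the difference itself (edgeR, Ex5 minus Ex4, log2 per 100 min). For Amotl1 the difference was -0.18, with a fall in Ex5 and a rise in Ex4. For Lats2 it was 0.15, with the steeper rise in Ex5. For Yap1 it was -0.056, with a fall in Ex5 and a slope near 0 in Ex4. Among all tested genes 16.1% had slopes that differed.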

How the results depend on the processing

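For the 9 tested genes and 14 alternatives besides leaving out single libraries, 395 of 435 values per gene kept their direction and their side of the threshold, 15 lost a call, 11 gained one and 14 turned in sign. The genes past the rhythm test numbered 0 with an imposed period of 180 min and 0 in Ex5 alone or Ex4 alone, where fewer libraries were fitted. They numbered 2 with quadratic time and 2 with DESeq2, Amotl2 joining Ajuba (adjusted p = 0.0102 and 0.0313), and Amotl2 passed in place of Ajuba at 150 min (0.0295). For curvature 1 gene passed with a filter at 5 CPM (Tead1, 0.0458), where fewer genes were tested. Where not stated, the cause was not tested. Leaving out each library in turn gave 1 to 2 genes for rhythm, 5 to 8 for trend, 0 to 2 for curvature, 5 to 6 for level, 2 to 3 for slope difference and 0 to 0 for rhythm difference. For rhythm, 2 passed without the Ex5 library at 325 min or at 425 min.

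Values that turned in sign were, in Ex4 alone, the trend of Amotl1 (0.054, adjusted p = 0.0156), and otherwise values that passed no test: rhythm of Yap1 at 120 min (-0.0014), with no time trend (-0.0053) and in Ex5 alone (-0.026), of Amotl1 (-0.016) and Lats2 (-0.0096) at 180 min and of Tead1 with no time trend (-0.0067); trend of Amotl2 with quadratic time (-0.0016), no cosine and sine terms (-0.0017), the GC covariate (-0.00061) and without 1 library (-0.00096 to 0.021); level of Tead1 with the replicate block (0.0076) and with the GC covariate (0.020), of Tead2 with the GC covariate (-0.0087); and rhythm difference of Ajuba with the GC covariate (-0.0022). Rhythm and rhythm difference were here measured at the peak time, relative to Hes7, of the main fit. A minus sign in them marks a shifted peak and not a negative size. Without 1 library, the level of Tead1 ranged from -0.019 to 0.015 and the curvature of Cyr61 from -0.029 to 0.10.

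The trend of Yap1 was also lost with no filter (adjusted p = 0.0966), at 120 min (0.0644), with quadratic time (0.0683) with the GC covariate (0.0674) and in Ex4 alone (0.852), and that of Amotl1 with no filter (0.0548). Trend calls of Lats2 in Ex4 alone (0.212) and of Cyr61 and Tead1 in Ex5 alone (0.0957 and 0.0818) were lost, as was the slope difference of Yap1 with no filter (0.0864). Gained were the trend of Wwtr1 in Ex5 alone (0.0158) and the slope difference of Tead2 with the GC covariate (0.00967). Time point numbers mark different minutes in the courses. For this reason the numbers were not taken as a pairing. Deviations of same-numbered libraries from the mean of their course correlated between 0.047 and 0.54 (median 0.32), over 0.1 in 14 of 16 pairs, and 3 of 16 matched best with their own number. Change over time was left in these deviations, so their r cannot tell a pairing from nearness in time. With the replicate block, the slope difference of Yap1 was -0.047 (adjusted p = 0.137), and no other call on level or slope changed. Over all genes, 155 rhythm calls became 62 with no time trend, 48 in Ex5 alone and 39 in Ex4 alone, 6280 trend calls 3715 in Ex4 alone, 2176 curvature calls 1411 without the Ex4 library at 405 min, and 0 rhythm difference calls 2 with no filter. Depth limits Ctgf, and 1 library per time leaves no direct measure of the spread between dishes.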
